A study of Mus musculus with 20 samples.

Results

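The genes described here encode the subunits of the oxidative phosphorylation enzymes. They were chosen by symbol: protein-coding genes of the Nduf, Sdh, Uqcr, Cox4 to Cox8 and Atp5 series, which are nuclear, and the protein-coding genes of the mitochondrial genome. The rule took 98 of the 55573 genes counted, 85 of them nuclear and 13 mitochondrial. No measured value entered the choice. By enzyme, the nuclear genes were 35 of complex I, 4 of complex II, 8 of complex III, 20 of complex IV and 17 of complex V, plus Atp5s, which matches by symbol but encodes a coupling factor and not a subunit. Cox8c and a second Atp5o entry had 0 counts in all 20 libraries.

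RNA was measured in C57BL/6 mouse bone marrow cells, taken at 7 to 9 weeks of age. Sorting began with lineage-negative cells positive for Sca-1 and c-Kit. Within that gate, hematopoietic stem cells (HSC) were sorted as CD150+CD48- and multipotent progenitors (MPP) as CD150-CD48-, and each was split by an antibody into cells with the leptin receptor on the surface (Lepr+) and cells without it (Lepr-). Lepr- and Lepr+ HSC and Lepr- and Lepr+ MPP make 4 groups of 5 libraries, every one from 1000 to 8000 cells of 2 mice. The groups therefore differ in surface phenotype, and each library stands for a small pool of animals rather than for 1 mouse.

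Oxidative phosphorylation runs on the inner mitochondrial membrane. Complexes I and II take electrons from NADH and succinate, complex III passes them to cytochrome c, complex IV hands them to oxygen, and complex V, the ATP synthase, uses the proton gradient to make ATP. Complexes I, III, IV and V are assembled from nuclear subunits, translated in the cytosol and imported, together with a few subunits encoded and translated inside the mitochondrion, while complex II is wholly nuclear. Blood stem cells at rest are known for relying little on respiration, and respiration rises as they enter differentiation.

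Libraries held 9532993 to 31589794 counts in genes. Depth followed the replicate number more than the group: replicate 3 held 26776464 to 31589794 counts and replicate 5 held 9532993 to 13753727. In bulk RNA of this kind, fewer cells of a type and less RNA per cell cannot be told apart. Lepr+ HSC replicate 5 and Lepr+ MPP replicates 4 and 5 were taken as the 3 libraries least like their own groups, and medians that move without them are given both ways. This choice was made with earlier results of these data known, and no measure of likeness is given here. Lepr+ MPP replicates 4 and 5 also hold the highest mitochondrial subunit shares, 2.11 and 3.05%. Cd34, Flt3 and Cd48, which mark progenitors, were lower in Lepr- HSC than in Lepr- MPP (edgeR adjusted p = 1.02e-07, 0.00112 and 0.0107, lower in 5 of 5 replicates). Both gates were CD48-, so the labels set no difference in Cd48. Of the stem cell markers, Slamf1, which encodes the CD150 used in the sort, was higher (3.18 ± 0.82, adjusted p = 0.0378), but Hlf was lower (-1.42 ± 0.17, adjusted p = 7.41e-05). The 6 stem cell markers summed to less in Lepr- HSC, at 216 to 473 CPM, than in Lepr- MPP, at 421 to 670 CPM, in 5 of 5 replicates.

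The mitochondrial genes differed in how much of their sequence they share with the nuclear genome, which bears on every count below. A nuclear stretch on chromosome 1 of GRCm38 holds annotated copies of 7 of them. Gm28661, Gm10925, Gm28437, Gm28438 and Gm10222 are near-complete, whereas Gm28439 aligns to 876 bases of mt-Nd4 and Gm29216 to 492 bases of mt-Co1. The copy of mt-Co2, Gm28661 (chr1:24614885-24615565, minus strand), matched the mitochondrial gene at 681 of 681 aligned bases. The copy of mt-Nd3, Gm28438, differed over its 345 bases by the single substitution T3C, with positions counted from 1 at the 5′ end of the mitochondrial gene. The first 60 bases of both pairs are given to show how little a short read has to tell them apart, with the differing base in capitals.
mt-Co2: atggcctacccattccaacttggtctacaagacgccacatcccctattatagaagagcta
Gm28661: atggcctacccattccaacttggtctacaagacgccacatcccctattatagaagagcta
mt-Nd3: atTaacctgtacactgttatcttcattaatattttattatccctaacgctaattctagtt
Gm28438: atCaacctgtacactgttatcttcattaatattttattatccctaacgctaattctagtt

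Counts of the 13 genes fell into separate ranges. Summed over all 20 libraries, mt-Co1, the catalytic core of complex IV, held 1505295 counts, mt-Cytb, the cytochrome b of complex III, 1192456, and mt-Nd1, of the membrane arm of complex I, 821007. mt-Nd4 held 287603, mt-Nd5 277301, mt-Nd2 276566 and mt-Nd6 44839. Together these 7 genes carried 99.91% of the mitochondrial subunit counts. In contrast, mt-Nd3 held 3173 counts, mt-Co3 476, mt-Atp6 242, mt-Co2 85, mt-Atp8 8 and mt-Nd4l 6. Of the 50-base stretches of mt-Co2, 100% occurred in another annotated transcript as well, and the share was 99.9% for mt-Co3, 99.5% for mt-Atp6, 98.8% for mt-Nd4l and 98.0% for mt-Nd3, against 0% for mt-Nd1, mt-Cytb and mt-Nd6. mt-Atp8, with 0% shared and 8 counts, departs from that order, and its neighbours on the mitochondrial genome, mt-Co2 and mt-Atp6, are both copied. The shared percentages count annotated transcripts only, and a copy of mt-Atp8 outside them was not looked for. mt-Nd4, at 62.2%, and mt-Co1, at 51.1%, share sequence over part of their length only and kept high counts. How reads from shared stretches were counted was not tested, so the low counts are given as counts and not as levels. The counts of genes and medians given below for mitochondrial subunits take in mt-Nd3, mt-Co3 and mt-Atp6, which passed the filter of the test, and medians over the 7 genes with high counts, a choice made after the values were seen, stand beside them.

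**Figure D1:**
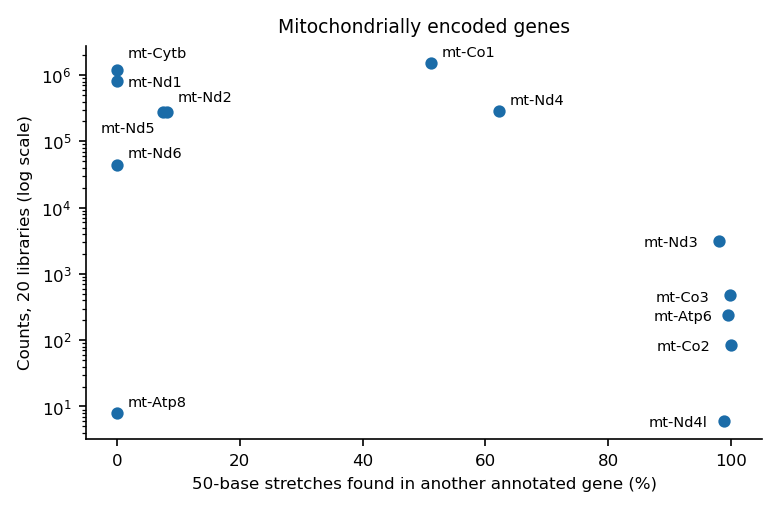
Counts summed over 20 libraries (vertical axis, log scale) against the percentage of 50-base stretches found in another annotated transcript (horizontal axis), 1 point per mitochondrial gene. The 5 genes with 98.0 to 100% shared have 6 to 3173 counts, mt-Atp8 has 8 at 0% shared, and the other 7 have 44839 or more.

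Among nuclear members, the ATP synthase and cytochrome oxidase genes stood highest per transcript length. The mean over 20 libraries, in CPM (TMM-scaled counts relative to library size) per kilobase of transcript, was 1292 for Atp5b, the catalytic beta subunit, 935 for Cox4i1, a regulatory subunit of complex IV, and 884 for Cox8a. The leading member of complex III was Uqcr11 at 635 CPM per kb, of complex I Ndufa7 at 434 and of complex II Sdhd, a membrane anchor, at 370. Within complex II, whose subunits are present in equal number in the enzyme, Sdhb stood at 262 CPM per kb, Sdha, the flavoprotein, at 181 and Sdhc at 55.0. Counts of 18 nuclear entries are uncertain because over 20% of their sequence occurs in another transcript, above all Atp5g2 (87.4%) and Atp5l (84.9%), and the low level of Atp5l, 22.5 CPM per kb, belongs with these. Of the genes named below, Atp5o (50.3%), Uqcrb (43.4%) and Cox5b (25.9%) are also among the 18, and Atp5j shares 16.3% with its neighbour Gabpa.

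Summed over the 85 nuclear genes, the share of all gene counts was highest in Lepr- HSC. In replicates 1 to 5 it was 1.96, 2.30, 1.82, 2.86 and 3.08% in Lepr- HSC, with a mean of 2.40 ± 0.550% (SD, n = 5, here and for all means below). In Lepr+ HSC it was 1.62, 2.22, 1.49, 2.35 and 2.72%, with a mean of 2.08 ± 0.516%. In Lepr- MPP it was 1.55, 1.67, 1.55, 2.53 and 2.04% (1.87 ± 0.420%) and in Lepr+ MPP 1.43, 1.53, 1.41, 2.42 and 2.16% (1.79 ± 0.468%). The 4 groups overlap, and in every group replicates 4 and 5 are higher than replicates 1 and 3. Within a replicate number the order is steadier. Lepr- HSC exceeded Lepr- MPP in 5 of 5 replicates, by a ratio of 1.13 to 1.51, and Lepr+ HSC lay below Lepr- HSC in 5 of 5, at a ratio of 0.818 to 0.964. Lepr+ HSC exceeded Lepr+ MPP in 4 of 5 (ratio 0.971 to 1.45), and Lepr+ MPP lay below Lepr- MPP in 4 of 5 (ratio 0.911 to 1.05).

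The mitochondrial subunits did not follow that order. Their share was 1.52, 0.704, 0.882, 0.804 and 1.31% in replicates 1 to 5 of Lepr- HSC (mean 1.04 ± 0.350%) and 1.63, 0.930, 1.03, 1.13 and 1.54% in Lepr+ HSC (1.25 ± 0.314%). Lepr+ HSC, the lower of both HSC groups for nuclear subunits, was thus the higher for mitochondrial ones in 5 of 5 replicates, by a ratio of 1.07 to 1.40. In Lepr- MPP the share was 1.07, 0.771, 0.734, 1.01 and 1.27% (0.972 ± 0.222%), and in Lepr+ MPP 0.884, 0.937, 0.619, 2.11 and 3.05% (1.52 ± 1.03%). Lepr+ MPP replicates 4 and 5 exceed every other library, while replicates 1 and 3 are below their Lepr- counterparts. The ratio of mitochondrial to nuclear subunit counts was 0.774, 0.306, 0.484, 0.281 and 0.425 in Lepr- HSC and 1.00, 0.419, 0.690, 0.479 and 0.567 in Lepr+ HSC. It was higher in Lepr+ HSC in 5 of 5 replicates, by a factor of 1.30 to 1.70. The mitochondrial ribosomal RNAs, which are no subunits, were also higher in Lepr+ than in Lepr- HSC in 5 of 5 replicates, with shares of 0.214 to 0.730% against 0.173 to 0.684%.

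**Figure D2:**
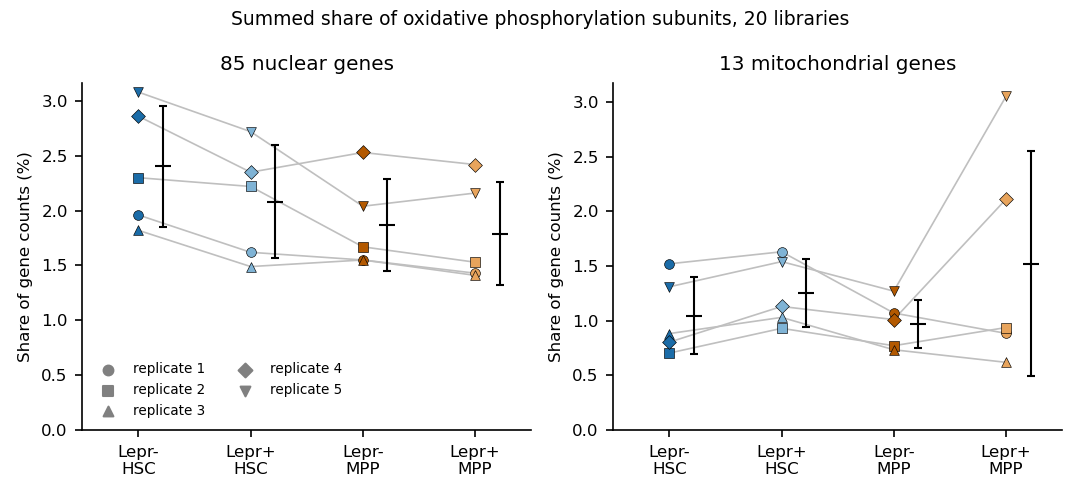
Percentage of all gene counts in nuclear (left) and mitochondrial (right) subunit genes, 1 point per library, with lines joining libraries of the same replicate number and bars for the mean ± SD of 5 libraries per group. Nuclear means fall from 2.40% in Lepr- HSC to 1.79% in Lepr+ MPP, while the mitochondrial shares of Lepr+ MPP replicates 4 and 5, 2.11 and 3.05%, stand above all other libraries.

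Before the tests, the way they were built has to be stated. The main test, edgeR's quasi-likelihood test over all 20 libraries with group as the only term, was adjusted over 16509 genes and called a gene at an adjusted p under 0.05. Of the members, 79 of 85 nuclear and 10 of 13 mitochondrial genes passed its filter on low counts. The same test was also fitted with the replicate number as a block, because the design gives 2 mice to each replicate and each number was taken to stand for a pool of mice. As the shares above show, the numbers differ from each other by more than the groups do.

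The question of stem cells against progenitors, among cells without surface receptor, gave the largest median difference of nuclear genes. Nuclear subunit genes stood higher in Lepr- HSC than in Lepr- MPP, with a median log2 fold change of 0.60, beside 0.01 over all genes tested. Of the 79 genes, 75 had a fold change above 0 (50.5% of all genes tested did), and 59 were higher in 5 of 5 replicates (12.8% of all genes). With group as the only term, 0 of the 79 were called, where 2.73% of all genes were; 16 had an unadjusted p under 0.05, all higher (6.22% of all genes were higher at that level), and DESeq2 and limma voom, which called 4.98% and 3.96% of all genes, called 0 as well. With the replicate block, 41 of the 79, or 51.9%, were called, all higher in Lepr- HSC, where 7.5% of all genes were called and 4.07% were called higher. At an unadjusted p under 0.05 stood 64 of the 79, all higher, beside 10.5% of all genes. The median fold change hardly moved, to 0.54. What moved was the error, which for Uqcr10 went from 0.35 to 0.13 on the log2 scale. The values of the groups overlapped for each of the 79 genes, where 6.23% of all genes showed no overlap. The groups also differed in read pairs assigned to no gene. These took 28.9, 30.1, 22.1, 36.8 and 33.6% of all pairs in replicates 1 to 5 of Lepr- HSC. In Lepr- MPP they took 25.3, 22.2, 22.3, 30.1 and 32.2%. The part of the unassigned pairs in the subunit values was not tested.

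Complex V, the ATP synthase, had the highest share of called genes with the block, 13 of 16. Atp5mpl, a small subunit of the membrane part, had the smallest p of all nuclear members in both fits. It read 282, 192, 146, 354 and 443 CPM in replicates 1 to 5 of Lepr- HSC and 116, 106, 93.9, 182 and 165 CPM in Lepr- MPP. Each Lepr- HSC value exceeds its own replicate's MPP value, although the lowest HSC library is below the 2 highest MPP libraries. The log2 fold change was 1.09 ± 0.36 (SE, adjusted p = 0.144), and 1.03 ± 0.16 with the block (adjusted p = 0.00095). Without the 3 libraries least like their groups, it was called with group alone too (1.09 ± 0.28, adjusted p = 0.0359). Those 3 are Lepr+ libraries and not part of this comparison, so the fold change stayed and the error was smaller.

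The membrane rotor of the ATP synthase is a ring of c subunits, and 3 genes, Atp5g1, Atp5g2 and Atp5g3, encode the same mature c protein with different import sequences. All 3 were called with the block: Atp5g1 at 0.84 ± 0.16 (adjusted p = 0.0036; 0.84 ± 0.43 and 0.456 without it), Atp5g3 at 0.69 ± 0.14 (0.00553) and Atp5g2 at 0.63 ± 0.17 (0.0351). Per length, Atp5g3 gave most of the sum of these genes in every group, from a mean of 63.8% in Lepr+ HSC to 65.3% in Lepr- MPP. That share rests on the lengths used. Atp5g3 and Atp5g1 held close counts over all libraries, 140875 and 130085, while their longest principal transcripts have 723 and 4715 bases. The counts of Atp5g2 are uncertain for the reason given above. Atp5j, coupling factor 6 of the stalk, was called at 0.59 ± 0.12 (adjusted p = 0.00466; 0.62 ± 0.28 and 0.368 without the block). Atp5b, the catalytic subunit and the nuclear member highest per length, read 1713, 3349, 2761, 4481 and 3070 CPM in Lepr- HSC and 1709, 2156, 2076, 3776 and 2199 CPM in Lepr- MPP. It was not called (0.35 ± 0.11, adjusted p = 0.0581 with the block), and in replicate 1 its values were nearly equal.

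In complex IV, 8 of 15 genes were called with the block. Cox5b, a zinc-binding subunit, read 238, 249, 197.5, 443 and 463 CPM in Lepr- HSC against 145, 146, 135, 224 and 231 CPM in Lepr- MPP, so the groups overlap but each replicate separates. Its fold change was 0.85 ± 0.37 (adjusted p = 0.323), and 0.79 ± 0.15 with the block (0.00337). Cox7a2, the broadly expressed form of subunit VIIa, read 232, 223, 144, 369 and 578 CPM in Lepr- HSC against 129, 109.6, 92.75, 233.5 and 194 CPM in Lepr- MPP. With the block it was called at 0.94 ± 0.18 (adjusted p = 0.00382). Cox4i1, the leading gene of the complex per length, was not called (0.41 ± 0.18, adjusted p = 0.211 with the block), although it was higher in 5 of 5 replicates.

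In complex III, 4 of 8 genes were called with the block. Uqcr10, a small accessory subunit, read 209, 186, 149, 317 and 378 CPM in Lepr- HSC and 110.5, 111, 96.0, 177 and 187 CPM in Lepr- MPP. Replicates 4 and 5 are the high ones in both groups, and the HSC library is the higher one in each replicate. The fold change was 0.86 ± 0.35 (adjusted p = 0.278), and 0.83 ± 0.13 with the block (0.00115). Uqcrb, an accessory subunit beside cytochrome b, was called at 0.75 ± 0.15 with the block (adjusted p = 0.0055).

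In complex I, 16 of 35 genes were called with the block. Ndufb7, a subunit of the membrane arm on the intermembrane side, read 149.6, 215, 148, 337 and 357 CPM in Lepr- HSC and 116, 143, 113, 205 and 179.6 CPM in Lepr- MPP. It had the smallest p of the complex with the block (0.60 ± 0.12, adjusted p = 0.00444; 0.67 ± 0.34 and 0.450 without it). Ndufa7, the highest member per length, was not called (0.37 ± 0.16, adjusted p = 0.193 with the block). The members named for the replicate block were picked by smallest p after that fit was seen.

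In complex II, which also serves the citric acid cycle, 0 of 4 genes were called with or without the block. Of the 4, 3 had a fold change above 0, with a median of 0.34. With the block, 2 were higher at an unadjusted p under 0.05 (10.5% of all genes). The summed share of the complex was higher in Lepr- HSC in 4 of 5 replicates, at a ratio of 0.996 to 1.13. Sdhb, the iron-sulfur subunit, read 261, 355, 312, 491.5 and 435 CPM in Lepr- HSC and 193, 279, 259.6, 399 and 279.8 CPM in Lepr- MPP (0.39 ± 0.12, adjusted p = 0.0566 with the block). Sdha went the other way in replicates 1, 2 and 5, with 431, 505, 806, 509.7 and 424.5 CPM in Lepr- HSC against 543, 713, 671, 427 and 546.5 CPM in Lepr- MPP (-0.13 ± 0.13, adjusted p = 0.669 with the block). Whether complex II differs from the other enzymes was not tested.

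**Figure D3:**
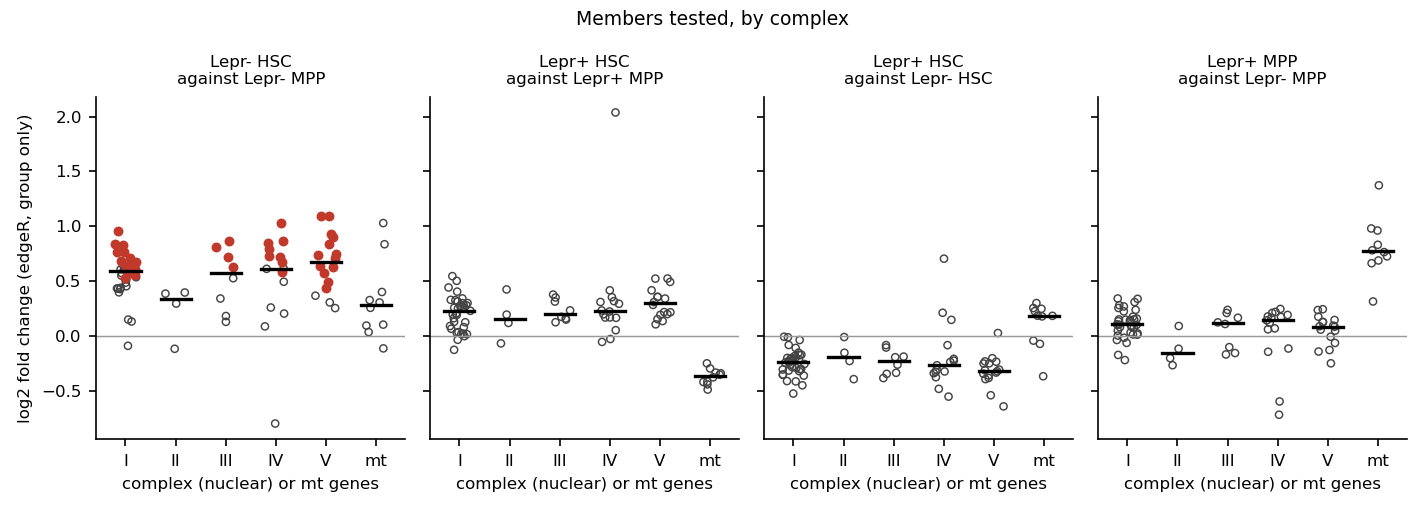
Log2 fold change of each tested subunit gene, with group as the only term, by enzyme complex and for 4 comparisons, with bars for the medians and filled red points for genes at an adjusted p under 0.05 with the replicate block; Atp5s is not drawn. Red points appear for nuclear genes of complexes I, III, IV and V in Lepr- HSC against Lepr- MPP, where 41 were called, and in no other comparison.

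Calls with the block depended on which replicates were in. Without replicate 1, 2, 3, 4 or 5 in turn, 12, 23, 24, 33 and 15 nuclear members were called, and 52 were when the 3 libraries that stood apart from their groups were left out. Those 3 libraries are Lepr+ and not part of this comparison. The share of all genes called moved as well, from 3.92% higher or lower without replicate 1, 4.21% without replicate 2, 3.39% without replicate 3, 6.47% without replicate 4 and 5.47% without replicate 5 to 11% without the 3 libraries. Over 10 block fits, which include other scalings, 11 nuclear members were called each time: Atp5g1, Atp5g3, Atp5mpl, Atp5o, Cox5b, Cox7a2, Ndufa3, Ndufb10, Ndufb7, Uqcr10 and Uqcrb. How many of all genes were called in all 10 fits was not counted. These further fits were chosen after the block result was seen. With library size as the only scaling, the block called 35 nuclear members, the median over all genes went to -0.14 and that of the nuclear members to 0.42, and 494 genes were called higher and 738 lower, where TMM gave 672 and 566. With group alone and that scaling, these medians were -0.10 and 0.44.

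**Figure D4:**
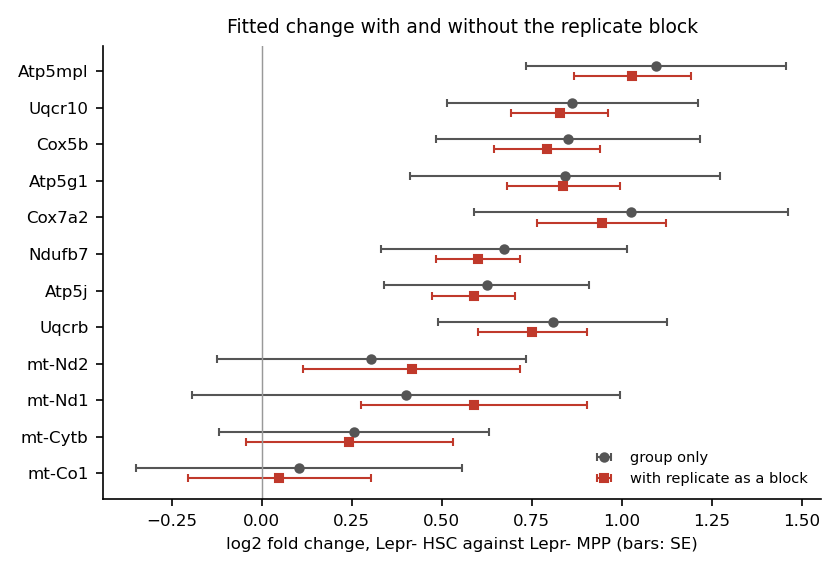
Log2 fold change ± SE, Lepr- HSC against Lepr- MPP, for 8 nuclear genes and 4 mitochondrial genes, from the test with group alone and from the test with the replicate block. Fold changes of the nuclear genes are close in both, such as 0.86 and 0.83 for Uqcr10, and their errors are smaller with the block.

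Cell markers moved with this comparison. The summed level of 10 proliferation markers was 2197 to 3322 CPM in Lepr- HSC and 1105 to 1479 CPM in Lepr- MPP, with 1604 to 2326 CPM in Lepr+ HSC and 810 to 1251 CPM in Lepr+ MPP. All 10 had a fold change above 0 in Lepr- HSC against Lepr- MPP and 6 were called, among them Birc5 (1.74 ± 0.24, adjusted p = 0.000266) and Cdk1 (1.62 ± 0.25, adjusted p = 0.000877), both genes of dividing cells. By group mean, the order of these markers is the order of the nuclear subunit share. Libraries within a group did not keep it. In Lepr- HSC, replicate 3 had the highest proliferation share (0.337%) and the lowest nuclear share (1.82%). So did replicate 3 of Lepr+ HSC (0.254 and 1.49%) and of Lepr+ MPP (0.122 and 1.41%). In Lepr- MPP, replicate 5 had the highest proliferation share (0.15%), with a nuclear share of 2.04%. The 6 megakaryocyte markers summed to 2631 to 5477 CPM in Lepr- HSC and 546 to 955 CPM in Lepr- MPP, and 4 of the 6 were called, led by Vwf and Pf4. The part of either list in the subunit result was not tested.

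No mitochondrial subunit was called between Lepr- HSC and Lepr- MPP, with 0 of 10 at an unadjusted p under 0.05 and a median fold change of 0.28 (0.10 over the 7 genes with high counts). mt-Nd1 read 1857, 2145, 1400, 3286 and 3204 CPM in Lepr- HSC and 1164, 967, 858, 3615 and 2402 CPM in Lepr- MPP. It was higher in 4 of 5 replicates (0.40 ± 0.59, adjusted p = 0.899; 0.59 ± 0.31 and 0.322 with the block), and it was called with the block once those 3 libraries were left out (0.54 ± 0.16, adjusted p = 0.0462). Those 3 libraries are Lepr+ and not part of this comparison. mt-Co1 read 4495, 2320, 2506, 2701 and 6286 CPM in Lepr- HSC against 3567, 2879, 2572, 2567 and 5452 CPM in Lepr- MPP, a fold change of 0.10 ± 0.45 (adjusted p = 0.978). Its groups lie on top of each other. The nuclear genes of complex IV were thus called in 8 of 15 cases with the block while their mitochondrial partner gave 0.05 ± 0.25 (adjusted p = 0.954), but the difference between nuclear and mitochondrial genes was not itself tested.

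The comparison of Lepr+ with Lepr- HSC, which asks what sets apart the stem cells that carry the receptor, gave lower nuclear values. It shares its Lepr- HSC libraries with the comparison above. The median log2 fold change was -0.25, beside about as many genes above as below 0 overall (49.6% above). Of 79 nuclear members, 74 had a fold change below 0 (50.3% of all genes did) and 35 were lower in 5 of 5 replicates (8.8% of all genes), against 1 higher in all 5 (6.83%). None was called with group alone, where 0.103% of all genes were, 0 had an unadjusted p under 0.05, and voom and DESeq2 called 0 (0.109% and 1.11% of all genes). With the block 0 were called, where 1.02% of all genes were, and 26 had an unadjusted p under 0.05, all lower, as 5.49% of all genes had. The smallest p was again that of Atp5mpl, at 165, 178, 97.7, 191 and 276.5 CPM in Lepr+ HSC (-0.60 ± 0.16, adjusted p = 0.116 with the block; -0.64 ± 0.36 and 0.847 without). Each of these is below the Lepr- HSC library of the same number. Atp5b was lower in 5 of 5 replicates as well, with 1417, 3046, 1929, 3299 and 2512 CPM in Lepr+ HSC (-0.33 ± 0.11, adjusted p = 0.208 with the block). Without Lepr+ HSC replicate 5, the nuclear median was -0.50.

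Summed over an enzyme, complex V took 0.779% of counts in Lepr+ HSC and 0.933% in Lepr- HSC, complex I 0.554 and 0.630%, complex IV 0.367 and 0.415%, complex III 0.238 and 0.270% and complex II 0.140 and 0.154%. The summed share of complex V was lower in Lepr+ than in Lepr- cells in 5 of 5 replicates, in HSC and in MPP alike. Gene by gene the signs were less alike. In HSC, 15 of the 16 tested genes of complex V had a fold change below 0. In MPP, 11 of 16 were above 0 with group alone (median 0.09) and 8 of 16 with the block. The interaction of Lepr status and cell type called 0 of these 16 genes, with group alone or with the block. The fold changes rest on TMM scaling, the summed shares on raw counts. Marker sums moved between these groups too. Each of the following held in 5 of 5 replicates, stromal markers apart. Proliferation markers were lower in Lepr+ HSC, at a ratio of 0.637 to 0.871, with 0 of 10 called. Megakaryocyte markers were lower, at 0.506 to 0.715, with 0 of 6 called and 2 lower with the block, and erythroid markers at 0.148 to 0.644, with 0 of 10 called. Endothelial markers were higher, at 1.23 to 1.58, with 0 of 10 called and 1 higher with the block. Stem cell markers were higher, at 1.69 to 3.06, with Hlf and Procr called and 3 higher with the block. Mural (pericyte and smooth muscle) markers were rare, at 2.00 to 34.6 CPM in Lepr+ HSC. Their sum was higher at a ratio of 1.29 to 49.4, with 0 of 4 tested called. Stromal markers were higher in 4 of 5 replicates, at 0.949 to 5.65, with 0 of 10 called. The part of these lists in the subunit values was not tested.

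The mitochondrial subunits of HSC leaned the other way. The median fold change of Lepr+ against Lepr- HSC was 0.18 (0.23 over the 7 genes with high counts), 7 of 10 were above 0, and 0 were called or had an unadjusted p under 0.05. mt-Co1 read 4773, 3014, 3026, 3065 and 7534 CPM in Lepr+ HSC, each above the Lepr- HSC library of its number (0.23 ± 0.45, adjusted p = 1; 0.23 ± 0.25 and 0.812 with the block). The gap is small beside the range over replicates. mt-Cytb read 3949, 2491, 2781, 3274 and 4003 CPM in Lepr+ HSC and 4064, 1725, 2602, 2332 and 3792 CPM in Lepr- HSC, higher in 4 of 5 (0.18 ± 0.38). mt-Nd4 and mt-Nd6 were higher in 5 of 5 replicates (0.25 ± 0.40 and 0.30 ± 0.36), and mt-Nd5 in 4 of 5 (0.18 ± 0.37). Without Lepr+ HSC replicate 5, the mitochondrial median was 0.05.

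**Figure D5:**
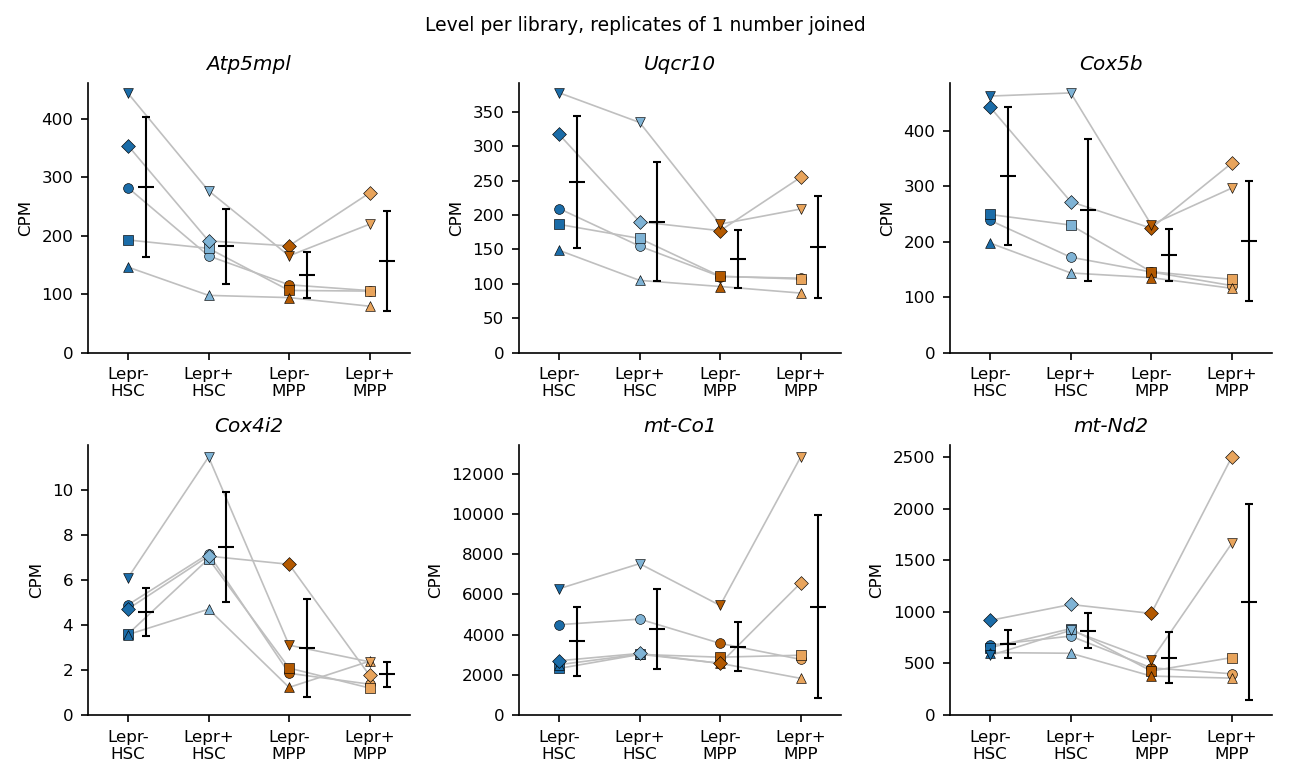
CPM per library in the 4 groups for Atp5mpl, Uqcr10, Cox5b, Cox4i2, mt-Co1 and mt-Nd2, 1 point per library. The Atp5mpl values of Lepr- HSC run from 146 to 443 CPM and those of Lepr- MPP from 93.9 to 182 CPM, and the mt-Nd2 values of Lepr+ MPP replicates 4 and 5 are the highest of all libraries.

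Between Lepr+ HSC and Lepr+ MPP, nuclear members had a median fold change of 0.23, with 73 of 79 above 0 (48.4% of all genes) and 8 higher in 5 of 5 replicates (5.8%). The median was 0.61 without the 3 libraries that stood apart, 0.02 without Lepr+ HSC replicate 5 and 0.48 without Lepr+ MPP replicate 4. Leaving out a whole replicate number, so that every group loses a library, it ran from 0.13 to 0.43. None was called by edgeR with group alone, where 0.466% of all genes were, or with the block, where 1.77% were. Unadjusted p-values under 0.05 numbered 1 with group alone (4.13% of all genes, counting those higher) and 27 with the block (7.21%), all higher in HSC, and voom called 0 (0.763%). The 1 gene was Cox4i2, which encodes the second form of subunit IV of cytochrome oxidase, known from lung and from cells that sense oxygen. It read 7.16, 6.94, 4.70, 7.06 and 11.5 CPM in Lepr+ HSC and 1.37, 1.20, 2.39, 1.76 and 2.36 CPM in Lepr+ MPP. These are the only nuclear member's values in that comparison that do not overlap, which 2.13% of all genes also showed. The fold change was 2.04 ± 0.52 (adjusted p = 0.11; 1.99 ± 0.51 and 0.0608 with the block), and DESeq2 called it (2.03 ± 0.41, adjusted p = 0.000172), where it called 2.1% of all genes.

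In the other groups Cox4i2 read 4.90, 3.60, 3.57, 4.71 and 6.10 CPM in Lepr- HSC and 1.85, 2.085, 1.23, 6.69 and 3.10 CPM in Lepr- MPP. It was the nuclear member that was higher in Lepr+ than in Lepr- HSC in all 5 replicates (0.70 ± 0.51, adjusted p = 0.971). Per length, Cox4i2 gave 0.694 ± 0.331% of the sum of Cox4i1 and Cox4i2 in Lepr- HSC, 1.16 ± 0.462% in Lepr+ HSC, 0.493 ± 0.139% in Lepr- MPP and 0.377 ± 0.233% in Lepr+ MPP. Cox4i1 was thus the form read in all 20 libraries, and Cox4i2 a small share in each. Of the other tissue-bound forms, Cox6b2 gave group means of 7.11 to 9.32% of its pair. Cox7a1 gave 0.312% in Lepr- HSC, 0.594% in Lepr+ HSC, 0.918% in Lepr- MPP and 0.660% in Lepr+ MPP, at means under 1 CPM, and the muscle form Cox6a2 had 0 counts in Lepr- HSC and 5 in Lepr+ HSC, 20 in Lepr- MPP and 24 in Lepr+ MPP.

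For the mitochondrial subunits, Lepr+ HSC against Lepr+ MPP gave a median of -0.36 (-0.35 over the 7 genes with high counts), 10 of 10 below 0 (51.6% of all genes) and 0 called. Without the 3 libraries the median was 0.76, and 0.53 with the block as well, so that its sign rested on them.

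Among MPP, Lepr+ against Lepr- cells gave a nuclear median of 0.10 that depended on 3 libraries. Of 79 nuclear members 58 had a fold change above 0 (51.3% of all genes), 0 were called with group alone (0.2% of all genes), 0 had an unadjusted p under 0.05, and 0 were called with the block (0.103%) or by DESeq2 (1.26%) and voom (0.357%). With the block 1 nuclear member, Atp5b, was lower at an unadjusted p under 0.05 (2.65% of all genes). Without the 3 libraries the median was -0.51. That fit kept Lepr- MPP replicates 4 and 5, the highest of their group in nuclear share. With the block and without the 3 libraries the median was -0.16. With voom, using all libraries, it was -0.06. Only 5 nuclear members were lower in 5 of 5 replicates (6.53% of all genes) and 0 higher (5.73%). Atp5b was 1 of the 5, at 1465, 1836, 1742, 3027 and 1958 CPM in Lepr+ MPP. Its fold change was -0.25 ± 0.29 (adjusted p = 1; -0.24 ± 0.11 and 0.696 with the block).

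The mitochondrial subunits of MPP had the largest median, 0.77 (0.78 over the 7 genes with high counts), with 10 of 10 above 0, 0 called, 1 at an unadjusted p under 0.05 with group alone (3.33% of all genes) and 4 with the block (3.98%), all higher. The high values were in replicates 4 and 5. mt-Nd2 read 400, 557, 358, 2501 and 1664 CPM in Lepr+ MPP against 457.5, 427, 378, 985 and 530.3 CPM in Lepr- MPP, a fold change of 0.98 ± 0.43 (adjusted p = 0.948; 0.77 ± 0.31 and 0.579 with the block). mt-Nd1 read 962, 1247, 694, 6894 and 7737 CPM in Lepr+ MPP, and mt-Cytb 2094, 2386, 1564, 7153 and 7681 CPM. In replicates 1 and 3 each of the 3 genes is below its Lepr- MPP value. Without the 3 libraries the median was -0.38, and -0.12 with the block as well. Stromal markers, a list that holds Lepr itself, moved in the same group. The 10 genes summed to 136 to 3247 CPM in Lepr+ MPP and 6.86 to 30.2 CPM in Lepr- MPP, where Adipoq and Lum stood at 0, and 6 were called. Endothelial markers summed to 571 to 1104 CPM against 440 to 561 CPM, and 4 of 10 were called. Erythroid markers were lower in 5 of 5 replicates, at a ratio of 0.0574 to 0.188. Lymphocyte markers were higher in 3 and lower in 2 of 5 replicates, and 0 were called. They summed to 3676 CPM in Lepr+ MPP replicate 4 against 259 CPM in Lepr- MPP, but to 158 against 229 CPM in replicate 5. Lepr+ MPP replicates 4 and 5 held 11061285 and 9532993 gene counts. Read pairs assigned to no gene took 38.1 and 38.7% of all read pairs counted, the highest shares of the 20 libraries. Mitochondrial ribosomal RNA took 0.922 and 1.40% of gene counts. The part of the markers, the depth and the unassigned reads in the mitochondrial values was not tested.

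The difference between the Lepr contrast in HSC and in MPP, tested as an interaction, was not called for any member. Its median was -0.37 for nuclear and -0.66 for mitochondrial genes (-0.58 over the 7 with high counts), with 0 called, 0 at an unadjusted p under 0.05 for either set, and 0 called over all genes (0%). DESeq2, which called 0.161% of all genes, and voom called 0 members. With the block 8 nuclear members had an unadjusted p under 0.05, all lower (2.35% of all genes), and 0 were called.

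Genes that surround the enzymes were read in the same way for Lepr- HSC against Lepr- MPP. With group alone 0 genes of the following lists were called. With the block, 4.07% of all genes were called higher and 3.43% lower. The 77 tested proteins of the mitochondrial ribosome, which translates the mitochondrial subunits, gave 18 called higher and 0 lower (median 0.37), led by Mrpl42 (0.74, adjusted p = 0.00019). Of 19 electron carriers and related genes, 4 were called, all higher: Cycs, which is cytochrome c (0.85, 0.000238), Cyc1, the cytochrome c1 of complex III (0.58, 0.0121), Etfb (1.01, 0.00466) and Ndufab1, the acyl carrier of complex I (0.62, 0.0111). Of 48 assembly factors 2 were called higher, Uqcc2 (0.94, 0.00254) and Cox18 (0.67, 0.0453). The assembly factors' 2 calls are close to the share over all genes. Whether these lists differ from the nuclear subunits, with 51.9% called, was not tested.

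Genes that maintain and transcribe mitochondrial DNA gave 0 calls of 30 with the block and a median of 0.10. The 18 tested citric acid cycle genes had a median of 0.07, with Mdh2 and Fh1 called higher and Pdha1, of the pyruvate dehydrogenase, called lower (-0.55, adjusted p = 0.0403). Regulators of respiration leaned the other way, with a median of -0.30 and 3 of 16 called, all lower: the mitochondrial deacetylase Sirt3 (-0.45, 0.0153), Myc (-0.30, 0.0302) and Ppargc1a, the coactivator PGC-1alpha (-4.57, 0.0421). Ppargc1a was rare, with a mean of 0.584 ± 1.05 CPM among Lepr- HSC against 4.55 ± 2.60 CPM among Lepr- MPP, and its fold change with group alone was -2.90 ± 1.44. Between Lepr+ and Lepr- HSC, the block called Coq8a, a kinase-like protein of coenzyme Q synthesis, higher (0.75, adjusted p = 0.0038), and Cycs (-0.59, 0.0207) and Mrpl42 (-0.46, 0.0296) lower. Coq8a was also called higher in Lepr+ HSC than in Lepr+ MPP (0.70, 0.00355), beside Cycs (0.48, 0.0407) and Cox18 (0.86, 0.0341).

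Since many nuclear members moved together, their promoters were searched for motifs known from respiratory genes. RefSeq promoters of GRCm38.p6, from 250 bases before to 50 after the start, were found for 66 members, 71 promoters in all. On either strand, the NRF1 core GCATGCG was in 15.5% of them and in 3.58% of all 32851 promoters, the ETS core CCGGAAG, the type bound by GABP, in 22.5% and 8.86%, and the YY1 core ATGGCGG in 15.5% and 4.05%. None of these cores contains another, and a run CGCATGCG holds the NRF1 core on both strands. The promoters of Atp5j (chr16:84834927-84835226, minus strand) and Cox6a1 (chr5:115348909-115349208, minus strand) are shown because both genes were called with the block and between them they hold all 3 cores, in capitals. Atp5j holds the NRF1, YY1 and ETS cores in that order, and Cox6a1 holds the NRF1 core and, on the opposite strand, the ETS core next to its start. A second RefSeq promoter of Atp5j, from another start (chr16:84835576-84835875), holds none of the 3. A match describes the letters only.
Atp5j: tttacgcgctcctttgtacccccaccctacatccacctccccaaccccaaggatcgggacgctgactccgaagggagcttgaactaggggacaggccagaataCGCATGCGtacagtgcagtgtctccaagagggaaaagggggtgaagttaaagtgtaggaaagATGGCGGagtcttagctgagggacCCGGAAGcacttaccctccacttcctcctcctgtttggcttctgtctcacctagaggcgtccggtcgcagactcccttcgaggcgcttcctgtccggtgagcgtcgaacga
Cox6a1: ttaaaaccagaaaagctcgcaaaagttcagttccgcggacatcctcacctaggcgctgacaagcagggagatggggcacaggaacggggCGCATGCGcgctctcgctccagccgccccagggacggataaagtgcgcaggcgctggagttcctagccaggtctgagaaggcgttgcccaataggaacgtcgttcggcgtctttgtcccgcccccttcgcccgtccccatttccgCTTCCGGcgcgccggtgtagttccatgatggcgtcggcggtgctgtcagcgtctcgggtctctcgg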

How the data were processed

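The deposited files hold, per library, the authors' raw counts of read pairs for 55573 genes, not normalized, and end in 5 lines of unassigned read pairs, which took 21.4 to 38.7% of each library and were left out. Per the submitters' processing notes, the tools were STAR 2.7.1a, HTSeq 0.11.2, cutadapt 2.1, FastQC 0.11.8 and DESeq2 and the build was GRCm38. The HTSeq counting mode is not given in the sources used here. Per the labels, cDNA came from a SMART-Seq v4 kit and the libraries were non-stranded, so overlapping and antisense genes cannot be told apart.

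GENCODE M21 gave symbols and positions and matched 55480 gene identifiers. Counts were tested with edgeR 4.0.16 in R 4.3.3 (TMM; filterByExpr at 10 counts and 15 in total; robust quasi-likelihood F test, two-sided, group only, all 20 libraries). P-values were adjusted by Benjamini-Hochberg over 16509 genes. The biological coefficient of variation was 0.747. Alternatives used DESeq2 1.42.0, limma 3.58.1 voom, other scalings, left-out libraries and a replicate block. CPM are TMM-scaled counts. CPM per kb divide by the median length of a gene's principal transcripts, or by its exon length where none was marked. Shared sequence was counted over stretches of 50 bases against all GENCODE transcripts. The scripts were tested on simulated counts. P-values measure the spread between samples, each a pool of 2 mice.

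The design text gives 2 mice to each of 5 replicates, and each number carries 1 date, in June for replicates 1, 3 and 5 and in July for 2 and 4, in all 4 groups. The number was read from this as 1 pool of mice, a pairing that no label states outright. Deviations from group means correlated at a median of 0.265 over 30 pairs of libraries with the same number and -0.0832 over 120 with different numbers. Within replicates 1, 3 and 4 the correlations were 0.188 to 0.524. Replicate 2 gave -0.0455 to 0.183, and replicate 5 gave 0.0551 to 0.161.

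The members, lists and tests were chosen with earlier results of these data known. Genes named are the mitochondrial members, nuclear members called or with the smallest p per comparison, the highest per enzyme, the paired isoforms, and in other lists those called. Sdhb, Ndufb10, Ndufa3, Atp5o, Sdha and the promoters shown were picked after their values were seen.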

Additional observations from a re-analysis of the deposited data

Results flagged for a closer look

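In 3 of 180 groups of 5 libraries, over 45 measures, 1 library stood far from the other 4 by Dixon's criterion, which chance alone reaches in about 1 of 20 groups. Atp5b in Lepr- MPP replicate 4 was 3780 CPM, with the others at 1710 to 2200 CPM. mt-Nd2 in the same library was 985 CPM, with the others at 378 to 530 CPM. Sdha in Lepr- HSC replicate 3 was 806 CPM, with the others at 425 to 510 CPM.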

How the results depend on the processing

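The replicate block changed 1 set of calls, the count of nuclear subunits in Lepr- HSC against Lepr- MPP, from 0 to 41, and no other count of members. With the block, that count was 12 to 33 without 1 replicate number (12, 23, 24, 33 and 15 without replicates 1 to 5), 52 without the 3 libraries least like their groups, 42 with RLE size factors, 41 with upper-quartile scaling and 35 with library size alone. Over all genes the same fits called 541 to 1120 without 1 replicate number, 1977 without the 3 libraries, 1240, 1236 and 1232. With group alone and without the 3 libraries, 1 nuclear subunit was called there, and with the block and without the 3 libraries, 1 mitochondrial subunit was. The 3 libraries are Lepr+ and not part of that comparison. DESeq2 called 1 nuclear subunit in Lepr+ HSC against Lepr+ MPP. The causes of these changes were not tested.

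Medians moved by more than the spread as follows. Without the 3 libraries they were -0.50 (nuclear) and 0.05 (mitochondrial) for Lepr+ against Lepr- HSC, -0.51 and -0.38 for Lepr+ against Lepr- MPP, and 0.61 and 0.76 for Lepr+ HSC against Lepr+ MPP, the first of these within the spread. With the block as well they were -0.16 and -0.12 for Lepr+ against Lepr- MPP. Within the spread, that fit gave a nuclear median of -0.34 for Lepr+ against Lepr- HSC. For Lepr+ HSC against Lepr+ MPP its mitochondrial median was 0.53, also within the spread. Without the 3 libraries, the groups no longer hold the same replicate numbers. Without Lepr+ HSC replicate 5 alone the HSC medians were -0.50 and 0.05, and without Lepr+ MPP replicate 4 the nuclear MPP median was -0.19. In July libraries alone the mitochondrial median was 0.31 for Lepr+ against Lepr- HSC and -0.03 for Lepr- HSC against Lepr- MPP. Leaving out 1 library at a time, the nuclear median ran from 0.41 to 0.77 for Lepr- HSC against Lepr- MPP, from -0.50 to -0.09 for Lepr+ against Lepr- HSC from -0.19 to 0.28 for Lepr+ against Lepr- MPP and from 0.02 to 0.48 for Lepr+ HSC against Lepr+ MPP, and the mitochondrial one from 0.05 to 0.28 for Lepr+ against Lepr- HSC. Of the other values of the comparisons, 773 stayed within the spread or on their side of the threshold. A median could still change sign within the spread, as the nuclear median of Lepr+ against Lepr- MPP did with voom.

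Over all genes, the block called 1238 in Lepr- HSC against Lepr- MPP, where group alone called 451, 169 against 17 in Lepr+ against Lepr- HSC, 293 against 77 in Lepr+ HSC against Lepr+ MPP and 17 against 33 in Lepr+ against Lepr- MPP. DESeq2 called 879, 196, 371 and 243 in the same order. Depth limits the 6 low mitochondrial genes, of which mt-Nd4l, mt-Co2 and mt-Atp8 were not tested, and the rare isoforms.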

Other observations

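Nuclear subunits are also grouped by how often they were called over 10 fits with the replicate block. In Lepr- HSC against Lepr- MPP, 53 members were called in at least 1 of the fits and 11 in all of them. Single fits called 3.39 to 11% of all genes. How many of all genes were called in at least 1 fit, or in all, was not counted. Of complex II, Sdhb was called in 1 of the fits and no gene in all of them, while complex V gave Atp5g1, Atp5g3, Atp5mpl and Atp5o.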
